A study of Schizosaccharomyces pombe with 4 samples.

Results

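The genes described here are the intron-rich protein-coding genes of the fission yeast Schizosaccharomyces pombe: every nuclear protein-coding transcript of at least 800 and under 5000 bases whose annotated exon structure has 5 or more blocks, and so 4 or more introns. They numbered 326 of the 7023 features in the expression table, and 326 of the 4491 nuclear coding transcripts of that length, with 148 on chromosome I, 112 on chromosome II and 66 on chromosome III. A further 19 coding genes with 4 or more introns fell outside the length window. The study compared an spt6-1 strain, which carries a mutant allele of the gene for the elongation factor and histone chaperone Spt6, with a wild-type (WT) strain, by strand-specific sequencing of polyadenylated RNA with 2 libraries per strain. Both strains were prototrophic, were grown at 30 °C in rich YES medium and were held at 37 °C for 2 h before RNA was taken, so the temperature shift is shared by both groups. The series title names intragenic and antisense transcription as the question, and the files give the RNA of each gene on its own strand (sense) and on the other strand (antisense).

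Spt6 travels with RNA polymerase II and helps put nucleosomes back behind it. Yeast cells that lose this function are known for RNAs that start inside genes or run against them. Fission yeast introns are short, and the spliceosome recognises them by a conserved start, a branch site near the end and a final AG.

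The intron-rich genes held 1660 introns. The median gene had 5 introns, 161 genes had exactly 4, and the telomerase gene trt1 had the most, with 15. Their introns were 32 to 817 bases long, with a median of 50 and quartiles of 44 and 66 bases. Introns took up 14.6% of the locus of the median gene, against 11.012% in genes with 3 introns, 8.60% with 2 and 4.24% with 1.

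Introns of the genes on which the results turn are printed below so that their splice signals can be compared. The first lines are the 5 genes with the most introns, the rest are genes described in the following paragraphs, and each line shows the first intron except for ypt1, where the second is shown. The sequences are those of RefSeq on the build ASM294v3, written from the 5′ to the 3′ splice site of the gene's own strand. Capitals mark the first 6 bases, the final AG and, where present in the last 40 bases, CTAAC, one form of the branch site.
trt1, intron 1, minus strand, chrII:2065797-2065852: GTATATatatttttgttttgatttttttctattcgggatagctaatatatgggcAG
rdh54, intron 1, plus strand, chrI:703968-704014: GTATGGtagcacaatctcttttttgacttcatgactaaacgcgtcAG
clr6, intron 1, minus strand, chrII:851277-851318: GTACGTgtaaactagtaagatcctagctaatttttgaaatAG
SPCC320.04c, intron 1, plus strand, chrIII:163176-163218: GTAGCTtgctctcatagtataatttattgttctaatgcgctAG
trk2, intron 1, minus strand, chrI:259316-259355: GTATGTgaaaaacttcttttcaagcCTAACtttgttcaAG
bdp1, intron 1, minus strand, chrIII:2239211-2239255: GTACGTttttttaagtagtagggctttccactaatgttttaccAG
cdc2, intron 1, plus strand, chrII:1500244-1500285: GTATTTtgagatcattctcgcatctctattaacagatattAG
cul1, intron 1, plus strand, chrI:3612192-3612236: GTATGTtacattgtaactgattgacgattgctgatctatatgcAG
psf3, intron 1, minus strand, chrI:528626-528672: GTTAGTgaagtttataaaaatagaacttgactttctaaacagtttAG
nda3, intron 1, minus strand, chrII:3965877-3965912: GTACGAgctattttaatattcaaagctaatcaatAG
ypt1, intron 2, plus strand, chrII:2933292-2933342: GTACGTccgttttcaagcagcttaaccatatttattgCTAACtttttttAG
In these lines CTAAC was present in trk2 and ypt1, ending 10 and 9 bases before the end of the intron. In the other introns shown, CTAAC was not in that window.

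RefSeq held 323 of the 326 genes, 306 of them with every intron at the same place as in the expression table. Of their 1632 introns, 1629 began with GT and ended with AG. The most frequent start was GTAAGT, with 382 introns (23.4%), followed by GTATGT with 276 (16.9%). GTATGT opened a smaller share of introns than in genes with 3 introns (19.4%), 2 introns (21.1%) or 1 intron (23.8%). The order was the same for CTAAC, which was searched on the strand of the gene in the last 40 bases of each intron. It was found in 36.3% of introns of intron-rich genes, in 47.0% with 3 introns, 48.5% with 2 and 51.0% with 1. The shorter TAAC, which CTAAC contains, was found in 62.0%, 66.2%, 68.7% and 70.8%. Median intron length ran the other way to intron number, with 50, 57, 59 and 68 bases in these RefSeq introns, so the searched window covered more of each intron in the intron-rich genes. Within the intron-rich genes, CTAAC was in 32.8% of first, 36.6% of inner and 39.0% of last introns. No intron had CTAAC in 33 of these genes. Their median sense level was 12.5 RPKM (reads per kilobase, divided by the authors' denominator for the library) in WT, the mean of both libraries, against 20.9 RPKM for the 290 genes with at least 1 such intron. The median sense log2 change of the same genes was -0.04, against 0.02. This split takes no account of the number of introns per gene. Across the 323 genes, Spearman's rho between the share of introns with CTAAC and the WT sense level was 0.15. With the sense log2 change it was 0.09 across 321 genes.

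The deposited list of 12365 splice junctions holds positions and no level for any library, so it was used only to describe the genes, and the efficiency of splicing was not analysed here. All 1660 annotated introns of the intron-rich genes were in it. So were all 1011, 1188 and 972 annotated introns of coding genes of the same length window with 3, 2 and 1 introns. Presence in the list is thus no measure of reads across these introns. The list also placed a same-strand junction that is not annotated inside 233 of the genes (71.5%), at 0.629 per kilobase of locus. Among coding genes of that window the rate was 0.530 per kilobase with 3 introns, 0.453 with 2, 0.305 with 1 and 0.153 with none. Rdh54 held 10 such junctions. Opposite-strand junctions that are not annotated lay inside 142 genes (43.6%), against 37.1%, 33.2%, 31.6% and 31.6% of genes with 3, 2, 1 and no introns. Among genes with no annotated feature on the other strand, that was 43 of 110 (39.1%), against 263 of 974 (27.0%) intronless genes.

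Depth was 39693042 and 16894607 sense reads in spt6-1 replicates 1 and 2, and 36520471 and 17093322 in WT replicates 1 and 2. Antisense reads to all features numbered 5672959 and 2960923 in spt6-1, and 4716866 and 2231131 in WT. The intron-rich genes took 1.68% and 2.36% of the sense reads in spt6-1, and 2.16% and 2.20% in WT. The authors' denominator for spt6-1 replicate 1 was 27994342 reads, below the sense reads of that library, whereas those of the other libraries, 17272448, 35917252 and 17201744 in the order above, lay close to their sense reads. When both strands were instead scaled to equal coding sense reads per kilobase, 20 intron-rich genes were called higher and 29 lower on the sense strand and 249 higher and 4 lower on the antisense strand. Sense RNA of spt6 itself was at 12.7 and 8.32 RPKM in spt6-1, against 65.5 and 61.6 RPKM in WT, 5.93-fold lower (limma, adjusted p = 5.39e-04). The labels do not state separate cultures for the libraries of a strain, and p-values then reflect no more than the spread between these libraries, which may be technical. An exact permutation test of 2 against 2 libraries cannot give a p under 0.33, so single values carry no such test, and calls rest on limma fitted across all features.

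On the sense strand the intron-rich genes as a class stood at the same level in both strains, and on the antisense strand they stood several times higher in spt6-1. Their median sense level was 19.4 and 19.9 RPKM in spt6-1, against 20.8 and 18.3 RPKM in WT, and the groups overlapped. Their median antisense level was 4.21 and 3.94 RPKM in spt6-1, against 0.627 and 0.641 RPKM in WT. Both spt6-1 libraries lay above both WT libraries. Sense values are per exon length and antisense values per whole locus, introns included.

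**Figure D1:**
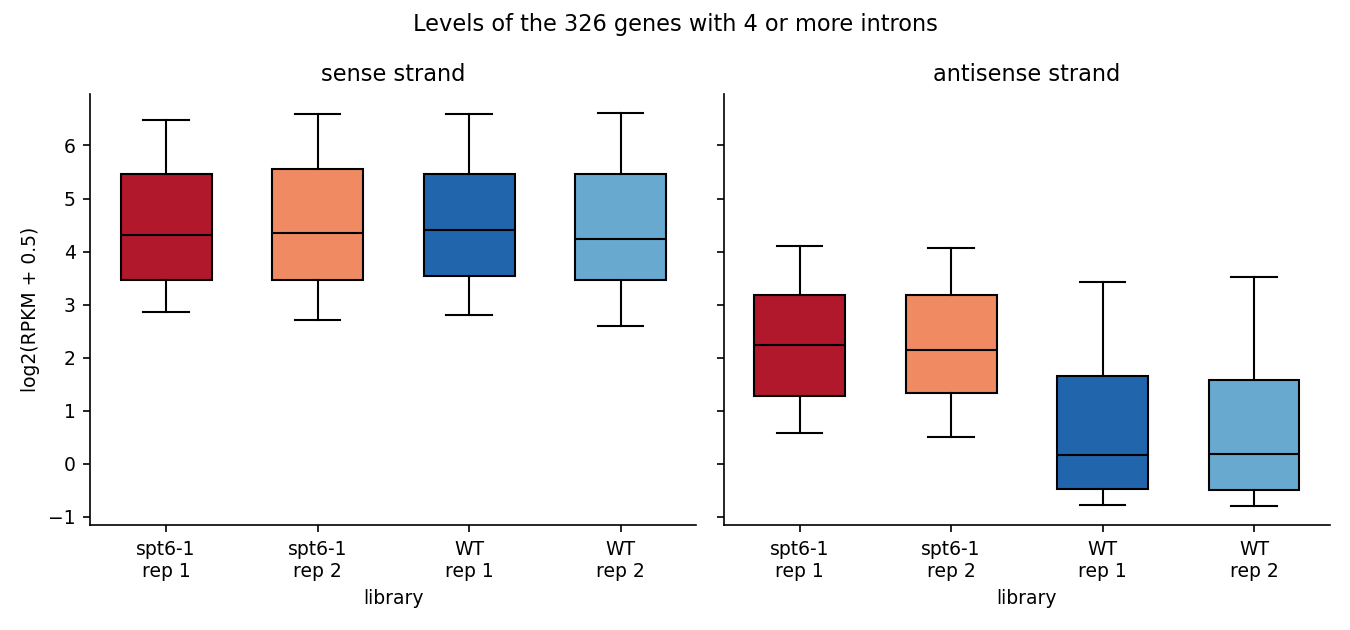
Box plots of the level of the 326 intron-rich genes in each library, on the sense strand (left) and the antisense strand (right), as log2(RPKM + 0.5). Boxes span the quartiles, lines are medians and whiskers reach the 10th and 90th percentiles of genes. The sense boxes lie at the same height, while the antisense medians are 4.21 and 3.94 RPKM in spt6-1 and 0.627 and 0.641 RPKM in WT.

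At the edge of the rule, the 161 genes with exactly 4 introns had median sense levels of 20.6 and 20.6 RPKM in spt6-1, and 21.6 and 19.3 RPKM in WT. The 337 genes with 3 introns had 27.9 and 28.0 RPKM in spt6-1, and 26.9 and 27.8 RPKM in WT. Median antisense levels on the 2 sides of the edge were 4.13 and 3.86 RPKM against 4.58 and 4.22 RPKM in spt6-1, and 0.631 and 0.643 RPKM against 0.662 and 0.661 RPKM in WT. Intronless genes had median sense levels of 30.8 and 29.2 RPKM in spt6-1, and 27.1 and 29.9 RPKM in WT. The intron-rich genes were thus the lower class in every library. The most abundant of them was SPBC660.16, the phosphogluconate dehydrogenase of the pentose phosphate pathway, with 1346 and 851 sense RPKM in spt6-1 and 708 and 720 sense RPKM in WT (adjusted p = 0.275). The least abundant was rec8, which encodes the kleisin subunit of meiotic cohesin, with 0.336 and 0.333 sense RPKM in spt6-1 and 0.102 and 0.0607 sense RPKM in WT.

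The sense comparison took genes that reached 1 RPKM in 2 or more libraries, as log2(RPKM + 0.5), with limma and Benjamini-Hochberg adjustment over all 6547 features tested and a threshold of 0.05. Of 324 intron-rich genes tested, 31 were higher in spt6-1 (9.57%) and 29 lower (8.95%), with a median log2 change of 0.02. Over all features tested, 21.8% were higher and 6.67% lower, and over the nuclear coding genes tested 12.1% were higher and 8.2% lower. Intronless coding genes of the same lengths had 13.9% higher and 6.93% lower, with a median of 0.08. The remaining intron-rich genes, rec8 and crs1, a meiotic cyclin, were too low to test. The counts rest on few libraries and on the filter. With no filter on low values, 19 of all 326 were higher and 17 lower, against 8.02% and 4.67% of nuclear coding genes in that fit. With the filter they were 12 higher and 12 lower without spt6-1 replicate 1, 16 and 19 without spt6-1 replicate 2, 19 and 10 without WT replicate 1, and 17 and 22 without WT replicate 2. The split also moved with scaling, to 16 higher and 66 lower under quantile normalization, which moved the median change of all features by -0.29. Both spt6-1 libraries lay above both WT libraries in 116 of the 326 genes and below them in 107. Over nuclear coding genes these patterns held in 33.3% and 30.5%.

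The 31 genes that rose on the sense strand did so by 1.60-fold to 15.8-fold, 16 of them by at least 2-fold and 5 by at least 4-fold. All folds are of log2(RPKM + 0.5), so that those of low genes are understated. Mug137, a BAR adaptor protein, had 11.6 and 12.4 sense RPKM in spt6-1, against 0.430 and 0.171 sense RPKM in WT, a log2 change of 3.98 ± 0.26 (SE, adjusted p = 1.21e-04). Mug62, a predicted AMP-binding enzyme, had 6.61 and 5.95 sense RPKM in spt6-1, against 0.121 and 0.0933 sense RPKM in WT, a log2 change of 3.48 ± 0.27 (adjusted p = 2.38e-04). In WT these values rest on 21 and 4 reads for mug137 and on 19 and 7 reads for mug62. Both genes lie wholly within a coding gene of the opposite strand, SPCC1919.12c for mug137 and alp41 for mug62. In WT nearly all reads at these loci were antisense to mug137 and mug62.

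Pck1, a protein kinase C-like kinase that acts in cell wall integrity, had 235 and 181 sense RPKM in spt6-1, against 33.2 and 32.7 sense RPKM in WT, 6.19-fold higher (adjusted p = 4.46e-04). SPBC1348.12, annotated as a DNA-binding transcription factor and located near the left end of chromosome II (bases 35112 to 36589 of ASM294v2), had 38.1 and 31.9 sense RPKM in spt6-1, against 5.58 and 5.30 sense RPKM in WT, 5.95-fold higher (adjusted p = 1.84e-04). In both genes each spt6-1 library stood clear of the WT pair. Hop1, a protein of the chromosome axis in meiotic recombination, had 7.07 and 8.54 sense RPKM in spt6-1, against 0.930 and 1.32 sense RPKM in WT (5.13-fold, adjusted p = 8.05e-04). Rdh54, a DNA translocase of recombination with 14 introns, had 10.9 and 10.4 sense RPKM in spt6-1, against 3.78 and 3.03 sense RPKM in WT (2.87-fold, adjusted p = 0.00221). Hop1 and rdh54 lie opposite SPNCRNA.1602 and atf31, which cover 95.1% and 68.2% of their length. Tae1, a methyltransferase annotated as acting on amino-terminal proline, stood at 80.4 and 80.1 sense RPKM in spt6-1, against 30.7 and 26.0 sense RPKM in WT (2.81-fold, adjusted p = 0.0027). SPBC2F12.12c, the cactin gene, stood at 35.5 and 32.5 sense RPKM in spt6-1, against 14.5 and 12.5 sense RPKM in WT (2.47-fold, adjusted p = 0.0031). Cdc2, the cyclin-dependent kinase that drives the cell cycle, had 56.7 and 63.5 sense RPKM in spt6-1, against 28.1 and 34.1 sense RPKM in WT (1.92-fold, adjusted p = 0.0176). The cdc2 call was lost without spt6-1 replicate 2 (adjusted p = 0.0733) and without WT replicate 1 (adjusted p = 0.0823), and when both strands were scaled to equal coding sense reads (adjusted p = 0.0532).

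The 29 genes that fell did so by 1.56-fold to 4.62-fold, 15 of them by at least 2-fold. Psf3, a subunit of the GINS complex of the replicative helicase, had 7.42 and 6.28 sense RPKM in spt6-1, against 33.5 and 33.2 sense RPKM in WT, a log2 change of -2.21 ± 0.18 (SE, adjusted p = 3.19e-04). It was the one intron-rich gene to fall by more than 4-fold. SPAC8C9.05, annotated as a D-Tyr-tRNA deacylase, had 6.03 and 10.1 sense RPKM in spt6-1, against 27.7 and 36.8 sense RPKM in WT (3.89-fold lower, adjusted p = 0.00313). SPCC825.02, which encodes the glucosidase II beta subunit Gbs1 of glycoprotein folding in the endoplasmic reticulum, had 23.1 and 21.6 sense RPKM in spt6-1, against 57.9 and 63.1 sense RPKM in WT (2.67-fold lower, adjusted p = 0.00253). The spt6-1 and WT libraries did not overlap in any of these genes. SPBC16A3.12c, a lipase, was 2.51-fold lower, SPAC4G8.07c, a tRNA methyltransferase, 2.38-fold lower, SPBC19G7.17, a Sec61-like protein, 2.37-fold lower, SPBC11C11.11c, a helicase, 2.34-fold lower, and top3, DNA topoisomerase III, 2.14-fold lower. With no filter on low values the calls of SPAC4G8.07c (adjusted p = 0.0575), SPBC19G7.17 (0.0785) and SPBC11C11.11c (0.124) were lost. The calls of 3 of these 5 genes were lost when single libraries were left out. SPBC19G7.17 had an adjusted p of 0.0905 without spt6-1 replicate 1 and 0.0775 without WT replicate 2. SPBC11C11.11c had 0.119 without spt6-1 replicate 2 and 0.142 without WT replicate 1, and top3 had 0.0559 without WT replicate 1.

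**Figure D2:**
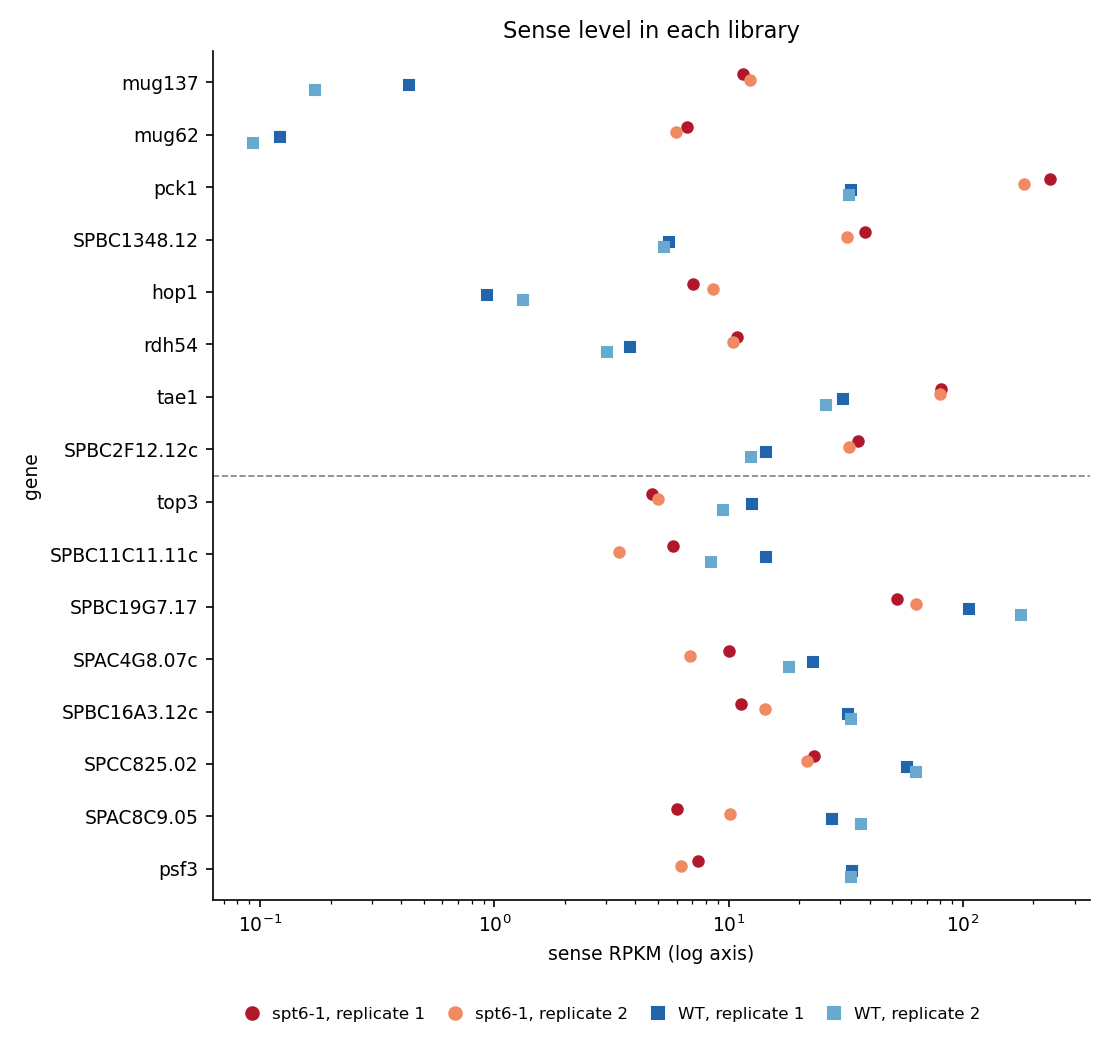
Sense RPKM in each library, on a log axis, of the 8 intron-rich genes with the largest rise (above the dashed line) and the 8 with the largest fall (below it). Circles are spt6-1 and squares WT. In each of the 16 genes both spt6-1 points lie on one side of both WT points, from mug137 (11.6 and 12.4 RPKM in spt6-1, 0.430 and 0.171 RPKM in WT) to psf3 (7.42 and 6.28 RPKM in spt6-1, 33.5 and 33.2 RPKM in WT).

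Antisense RNA was higher in spt6-1 over most intron-rich genes. With no filter on low values, 268 of all 326 were called higher (82.2%) and 4 lower, with a median log2 change of 1.46, whereas in the same fit 80.4% of nuclear coding genes were called higher and 1.52% lower, with a median of 1.47, so the share among intron-rich genes lay near that of all coding genes. Both spt6-1 libraries lay above both WT libraries in 294 of the 326, below them in 7, and the groups overlapped in 25. Over nuclear coding genes those shares were 86.4% above and 3.65% below. With the filter of 0.5 RPKM in at least 2 libraries, 307 intron-rich genes were tested, 257 were higher and 4 lower, against 81.9% and 1.65% of the 4728 coding genes tested. Of these 307, 113 passed the filter only through the spt6-1 libraries and 26 with 1 WT library, so the filtered counts cannot be read alone. Among the 168 that were at the filter in both WT libraries, 118 were higher and 4 lower, with a median of 1.03. In 16 of the 326 genes each WT library had at most 3 antisense reads. The counts depend on the scale on which libraries are set side by side. When each library was centred on its own antisense median, which shifts every change by -2.09, 53 of the 307 were higher and 160 lower, so that a gene whose rise is smaller than this shift takes the other sign there. Under quantile normalization 70 were higher and 96 lower.

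The call counts without a library were lower mainly where fewer genes passed the filter. Without spt6-1 replicate 1, 194 genes were tested, 136 were higher and 1 lower, and without spt6-1 replicate 2, 194 were tested, 132 were higher and 3 lower. Without WT replicate 1, 245 of 307 were higher and 1 lower. Without WT replicate 2, 244 were higher and 4 lower.

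Antisense reads over a locus include any RNA of a gene annotated on the other strand. Such a feature overlapped 216 of the 326 genes: a non-coding feature alone in 65, both kinds in 26 and a coding gene alone in the rest. Any overlap counted, however short, so the 216 hold SPBC11C11.11c, with 0.0976% of its locus covered, beside mug137, covered whole. The other 110 genes had nothing annotated opposite. Their median antisense level was 3.35 and 2.78 RPKM in spt6-1, against 0.385 and 0.276 RPKM in WT. For the 216 it was 5.26 and 5.31 RPKM in spt6-1, against 1.41 and 1.34 RPKM in WT. Each class stood higher in both spt6-1 libraries. With no filter, 105 of the 110 genes with nothing opposite were called higher, with a median log2 change of 1.82. Of those opposite a coding gene alone, 87 were higher and 3 lower, with a median of 1.03, of the 65 opposite a non-coding feature alone, 59 were higher, with a median of 1.85, and of the 26 opposite both, 17 were higher and 1 lower, with a median of 1.11. The part that RNA of the opposite gene has in these values was not tested.

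The antisense change was set against the introns of each gene. Across all 326 genes, in the fit with no filter, Spearman's rho of the antisense log2 change was 0.08 with the number of introns and -0.03 with the intron share of the locus, and -0.40 with the share of the locus overlapped by an opposite-strand feature. It was 0.26 with the WT sense level. Over the 168 genes at the filter in both WT libraries these values were 0.09, 0.10, -0.33 and 0.22 in the same order. These are descriptions across genes of the same 4 libraries. By number of introns, the median antisense change of genes with nothing annotated opposite was 1.82 with 4 or more, 1.90 with 3, 1.95 with 2, 1.84 with 1 and 1.89 with none, without a filter. Genes with an opposite-strand feature had medians of 1.26, 0.96, 1.22, 1.15 and 1.26 in the same order.

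**Figure D3:**
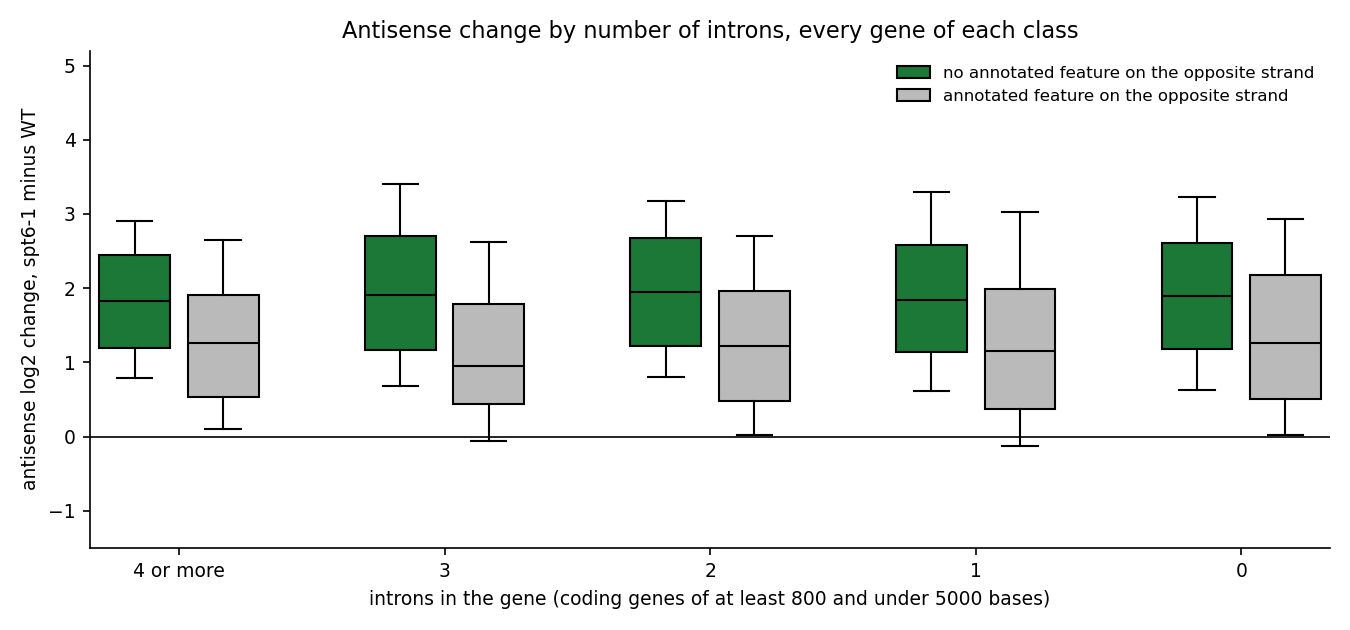
Antisense log2 change (spt6-1 minus WT, no filter on low values) of coding genes of at least 800 and under 5000 bases by number of introns, for genes without (green) and with (grey) an annotated feature on the opposite strand. Boxes span the quartiles, lines are medians and whiskers reach the 10th and 90th percentiles. The 110 intron-rich genes with nothing opposite have a median of 1.82, between 10th and 90th percentiles of 0.79 and 2.91, and the 974 intronless genes a median of 1.89.

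The antisense level before the change was not the same in these classes. Among genes with nothing opposite, the median WT antisense level of intron-rich genes, 0.385 and 0.276 RPKM, was above that of intronless genes, 0.179 and 0.170 RPKM, while the spt6-1 levels were 3.35 and 2.78 RPKM against 2.95 and 2.36 RPKM. Antisense RNA of the median intron-rich gene amounted to 19.8% and 20.1% of its sense RNA in spt6-1, against 3.04% and 2.95% in WT, both per length. Antisense exceeded sense in 53 and 60 intron-rich genes in the spt6-1 libraries and in 40 and 38 in the WT libraries. These were 16.3% and 18.4% in spt6-1 and 12.3% and 11.7% in WT. Among intronless genes of the same lengths the shares were 11.98% and 11.76% in spt6-1, and 8.58% and 7.91% in WT. With nothing annotated opposite, they were 4.55% and 4.55% of intron-rich and 5.34% and 4.21% of intronless genes in spt6-1. In WT they were 0.909% and 0.909% of intron-rich, against 1.23% and 1.13% of intronless genes. In 31 intron-rich genes antisense exceeded sense in all 4 libraries. In 16 it did so in both spt6-1 and neither WT library, and in 3 in both WT and neither spt6-1 library. The shares of these joint patterns over all coding genes are not given here, so the counts are not read as particular to intron-rich genes. Of the 16, 4 have nothing annotated opposite: cul1, vps16, gpi3 and cut20, singled out here after their values were seen. Vps16, a subunit of the HOPS tethering complex of the vacuole, had 15.4 and 13.6 antisense RPKM and 11.7 and 9.90 sense RPKM in spt6-1, against 0.771 and 1.23 antisense RPKM and 11.2 and 10.6 sense RPKM in WT. Gpi3, which acts in the first step of GPI anchor synthesis, had 13.2 and 13.3 antisense RPKM in spt6-1, against 2.75 and 1.59 in WT. Its sense RNA was at 7.69 and 5.36 RPKM in spt6-1, against 11.2 and 8.14 in WT (adjusted p = 0.158). Cut20, a subunit of the anaphase-promoting complex, had 5.26 and 5.57 antisense RPKM in spt6-1, against 0.735 and 0.725 in WT. In cut20 the sense levels were 2.77 and 3.55 RPKM in spt6-1, against 6.46 and 4.51 RPKM in WT (adjusted p = 0.0838).

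The largest antisense rise was that of bdp1, a subunit of the initiation factor TFIIIB of RNA polymerase III (chromosome III, bases 2237405 to 2239360 of ASM294v2, minus strand). It had 54.3 and 41.3 antisense RPKM in spt6-1, against 0.754 and 0.476 antisense RPKM in WT, 43.2-fold higher (limma, adjusted p = 6.57e-07). In reads these were 2972 and 1394 in spt6-1, against 53 and 16 in WT. Its sense level did not move beyond the spread, with 7.95 and 5.57 RPKM in spt6-1, against 6.32 and 6.99 RPKM in WT (adjusted p = 0.996), so antisense exceeded sense in both spt6-1 libraries and in neither WT library. Cdc2 had 20.7 and 21.0 antisense RPKM in spt6-1, against 0.792 and 0.429 antisense RPKM in WT (19.5-fold, adjusted p = 7.38e-07). SPCC63.03, a DNAJC11 family protein, had 17.9 and 14.6 antisense RPKM in spt6-1, against 0.447 and 0.319 antisense RPKM in WT (18.9-fold, adjusted p = 6.57e-07). Cul1, the scaffold of SCF ubiquitin ligases, had 22.2 and 17.1 antisense RPKM in spt6-1, against 0.825 and 0.602 antisense RPKM in WT (16.5-fold, adjusted p = 8.79e-07). In all 4 genes the lower spt6-1 library was far above the higher WT library. Crn1, the actin-binding coronin, had 39.1 and 24.7 antisense RPKM in spt6-1, against 2.00 and 1.06 antisense RPKM in WT (15.99-fold, adjusted p = 2.05e-06), and its antisense and sense levels in spt6-1 were nearly equal, with 40.1 and 26.1 sense RPKM.

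The other genes with the largest antisense rises were SPBC1348.12, pck1, ubp13, which RefSeq names as the Pan2 subunit of a poly(A)-trimming nuclease, SPAC22A12.08c, the amino-terminal part of the Crd1 fusion protein, and hip1, a HIRA-type histone chaperone. Pck1 had 11.4 and 9.29 antisense RPKM in spt6-1, against 0.159 and 0.381 in WT (14.2-fold, adjusted p = 1.12e-06), ubp13 11.4 and 9.04 in spt6-1, against 0.391 and 0.292 in WT (12.7-fold, adjusted p = 1.09e-06), and hip1 8.27 and 6.53 in spt6-1, against 0.174 and 0.138 in WT (11.97-fold, adjusted p = 1.13e-06). For SPAC22A12.08c the values were 11.7 and 8.94 in spt6-1, against 0.521 and 0.206 in WT (12.6-fold, adjusted p = 1.73e-06). SPBC1348.12 had 7.56 and 8.19 antisense RPKM in spt6-1, against 0.0377 and 0.0787 in WT, the WT values being 2 reads each, so only its log2 change with the pseudocount, 3.91, is given. Of these 10 genes, 3 had nothing annotated opposite, cul1, SPBC1348.12 and SPAC22A12.08c, and 6 lay opposite non-coding features alone. Those opposite cdc2, SPCC63.03, crn1 and pck1 covered 31.7%, 59.0%, 44.8% and 27.7% of the gene and were also higher in both spt6-1 libraries. Reads of the shared stretch can count in both values, so this is not a separate result. SPNCRNA.1438 opposite cdc2 was at 53.3 and 52.6 RPKM in spt6-1, against 2.26 and 1.00 RPKM in WT. The feature next to bdp1, SPNCRNA.1275, overlapped it by 0.153% of its length.

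**Figure D4:**
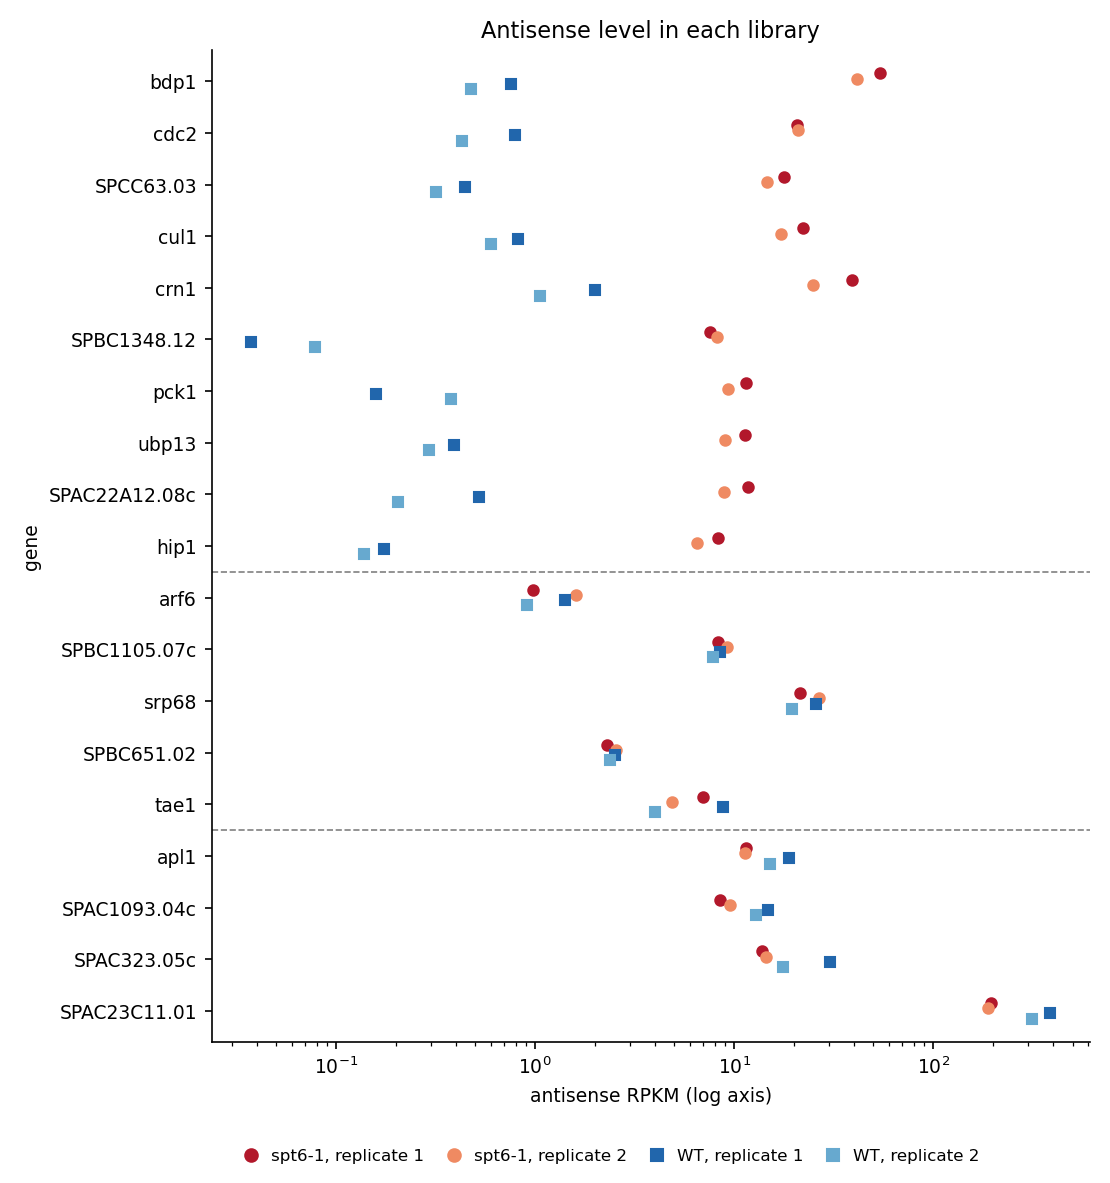
Antisense RPKM in each library, on a log axis, of the 10 intron-rich genes with the largest antisense rise (top), 5 with the smallest change in size among genes of at least 10 sense RPKM in every library (middle) and the 4 called lower (bottom). Circles are spt6-1 and squares WT, on the deposited scale. Bdp1 stands at 54.3 and 41.3 RPKM in spt6-1 and at 0.754 and 0.476 RPKM in WT, while in SPAC23C11.01 at the foot the order of the strains is the other way round.

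Only 4 intron-rich genes were called lower on the antisense strand, on the deposited scale, and each lies opposite a coding gene. SPAC23C11.01, an ICE2 family protein, had 196 and 189 antisense RPKM in spt6-1, against 385 and 314 antisense RPKM in WT (1.81-fold lower, adjusted p = 0.0236). The ribosomal protein gene rps23 covers 18.3% of it from the other strand, and rps23 sense RNA stood at 1068 and 1028 RPKM in spt6-1, against 2101 and 1715 RPKM in WT. SPAC323.05c, the methyltransferase Mtq2 of release factor eRF1, had 13.8 and 14.4 antisense RPKM in spt6-1, against 30.2 and 17.6 in WT (adjusted p = 0.0324), and SPAC323.04 opposite it had 21.7 and 24.4 sense RPKM in spt6-1, against 58.4 and 34.8 in WT. Apl1, a subunit of the AP-2 clathrin adaptor, had 11.5 and 11.4 antisense RPKM in spt6-1, against 18.9 and 15.1 in WT (adjusted p = 0.0282), and rpl1603 opposite it had 13.4 and 13.4 sense RPKM in spt6-1, against 22.5 and 17.9 in WT. In each gene the antisense value and the sense value of its partner were lower in both spt6-1 libraries than in both WT libraries. Where a gene and its partner overlap, the same reads can count in both values, so these are not separate results. None of these calls held without WT replicate 1, where the adjusted p was 0.111 for SPAC23C11.01, 0.271 for SPAC323.05c and 0.168 for apl1. SPAC23C11.01 and apl1 also lost the call without spt6-1 replicate 1 (0.0737 and 0.0877) and without spt6-1 replicate 2 (0.0861 and 0.0927).

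The fourth was SPAC1093.04c, a tRNA nucleotidyltransferase, which overlaps another intron-rich gene, SPAC1093.03, an inositol polyphosphate phosphatase, over 70.2% of its length. SPAC1093.04c had 8.52 and 9.56 antisense RPKM in spt6-1, against 14.8 and 12.8 antisense RPKM in WT (adjusted p = 0.0183), and 17.1 and 14.1 sense RPKM in spt6-1, against 9.58 and 9.45 sense RPKM in WT (adjusted p = 0.0349). SPAC1093.03 had 10.4 and 12.3 sense RPKM in spt6-1, against 20.9 and 18.2 sense RPKM in WT (adjusted p = 0.0259), and 14.7 and 12.1 antisense RPKM in spt6-1, against 6.49 and 6.04 antisense RPKM in WT (adjusted p = 7.44e-04). The sense strand of each is the antisense strand of the other, so these are not 4 separate results. The sense call of SPAC1093.04c was lost without any 1 of the 4 libraries, with adjusted p from 0.0549 to 0.172, and its antisense call without spt6-1 replicate 1 (0.116) or WT replicate 1 (0.0961).

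Of the 307 genes tested on the antisense strand, 46 were called neither way, of which 39 lie opposite a coding gene, 5 opposite a non-coding feature alone and 2 opposite nothing annotated. The filter bears on this split. Of the 99 genes tested with nothing annotated opposite, only 30 were at the filter in both WT libraries. The others needed higher spt6-1 values to be tested at all, so few of them could be left uncalled. The smallest changes among well expressed genes were in SPBC651.02, a nitrilase superfamily protein, tae1, srp68 of the signal recognition particle, SPBC1105.07c, the TREX subunit Pci2, and arf6. Srp68 had 21.4 and 26.7 antisense RPKM in spt6-1, against 25.7 and 19.5 antisense RPKM in WT (adjusted p = 0.718), with cdc31 covering 96.8% of it from the other strand. Arf6, a small GTPase with nothing annotated opposite, had 0.972 and 1.61 antisense RPKM in spt6-1, against 1.42 and 0.910 antisense RPKM in WT (adjusted p = 0.725). In both the groups overlapped.

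The change on one strand was set against that on the other with the log2 ratio of antisense to sense RNA in each library. Of 305 intron-rich genes tested, 235 had a higher ratio in spt6-1 and 9 a lower one, with a median log2 change of 1.61, against 71.7% higher and 6.04% lower among the 4682 coding genes tested. The filter on the antisense strand applies here too, and without it 236 of 326 were higher and 9 lower, against 67% and 6.29% of nuclear coding genes. With each library centred on its median, a shift of -1.97, 54 of the 305 were higher and 122 lower. Under quantile normalization 80 were higher and 54 lower. Without spt6-1 replicate 1, 106 of 189 were higher and 5 lower, and without spt6-1 replicate 2, 106 of 188 were higher and 4 lower.

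The 5 largest rises of the ratio were those of bdp1 (log2 change 5.43), SPCC63.03 (4.95), crn1 (4.39), cul1 (4.36) and mug64 (4.08), and psf3 followed closely with 4.05. Mug64, a BAR domain protein, was lower on the sense strand, with 66.7 and 59.4 RPKM in spt6-1, against 143 and 123.1 RPKM in WT (adjusted p = 0.0147), and higher on the antisense strand, with 8.35 and 8.04 RPKM in spt6-1, against 0.704 and 0.466 RPKM in WT (adjusted p = 1.88e-06). Its sense call was lost without spt6-1 replicate 2 (0.0693) and without WT replicate 1 (0.0584). In 25 intron-rich genes antisense was called higher and sense lower, in 20 both were higher, and in 211 antisense was higher with no call on the sense strand. On the antisense strand 257 of the 307 tested were called higher, against 81.9% of coding genes tested. The joint counts therefore do not by themselves link the 2 strands, and their shares over all coding genes are not given here. Across all 326 genes, with no filter, Spearman's rho between the changes on the 2 strands was -0.15.

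The 5 largest falls of the ratio were those of mug62, mug137, hop1, ypt5 and tae1, all of which rose on the sense strand. Mug62 had 11.9 and 14.9 antisense RPKM in spt6-1, against 15.1 and 18.3 antisense RPKM in WT (adjusted p = 0.194), and its ratio fell by 3.79 on the log2 scale (adjusted p = 5.21e-06). The levels of alp41, within which it lies, were nearly the same as these, 11.6 and 14.3 RPKM in spt6-1 and 14.8 and 17.4 RPKM in WT. The same reads can count in both values. Mug137 had 46.4 and 48.2 antisense RPKM in spt6-1, against 22.2 and 35.4 antisense RPKM in WT (adjusted p = 0.0213), a rise that was lost without WT replicate 1 (0.171) and had the other sign, -1.35, after median centring. Ypt5, the Rab GTPase of early endosomes, had 280 and 314 sense RPKM in spt6-1, against 112 and 132 sense RPKM in WT (2.43-fold, adjusted p = 0.0114), a call lost without WT replicate 1 (0.0591). Its antisense level was 1.89 and 1.47 RPKM in spt6-1, against 2.41 and 1.85 RPKM in WT (adjusted p = 0.291), and tpz1 lies opposite 66.5% of it. Hop1 had 7.53 and 11.1 antisense RPKM in spt6-1, against 4.53 and 5.90 in WT (adjusted p = 0.0133). That rise was lost without spt6-1 replicate 2 (0.11) and without WT replicate 1 (0.0725), and was -1.33 after median centring.

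**Figure D5:**
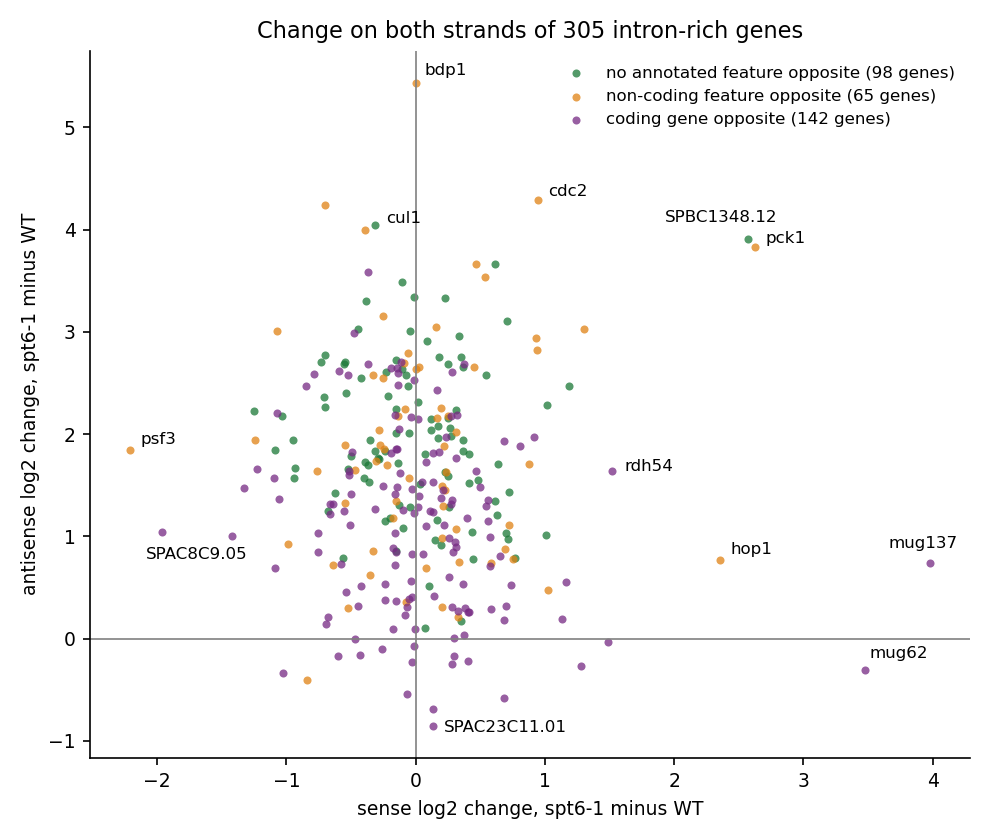
Sense (horizontal) and antisense (vertical) log2 change, spt6-1 minus WT, of the 305 intron-rich genes tested on both strands, coloured by what is annotated on the opposite strand. Most points lie above 0 on the vertical axis at any sense change; mug137 (3.98) and mug62 (3.48) stand farthest right, psf3 (-2.21) farthest left and bdp1 (5.43) highest.

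The 5 genes with the most introns each rose on the antisense strand on the deposited scale, while after median centring the changes of trt1 and rdh54 were -0.26 and -0.45 and clr6 was no longer called, with a change of 0.37 (adjusted p = 0.128). Trt1, with 15 introns and nothing annotated opposite, had 2.75 and 2.51 antisense RPKM in spt6-1, against 0.317 and 0.441 antisense RPKM in WT (3.57-fold, adjusted p = 2.33e-05). Its sense level was 8.58 and 8.89 RPKM in spt6-1, against 10.4 and 10.3 RPKM in WT (adjusted p = 0.35). Clr6, a class I histone deacetylase with 13 introns, had 4.95 and 5.59 antisense RPKM in spt6-1, against 0.499 and 0.588 antisense RPKM in WT (5.52-fold, adjusted p = 4.24e-06). Its sense level was lower, 31.4 and 37.4 RPKM in spt6-1, against 68.2 and 56.8 RPKM in WT (adjusted p = 0.0284), a call lost with no filter (0.0527) and without spt6-1 replicate 1 (0.137), spt6-1 replicate 2 (0.0562) or WT replicate 1 (0.112). SPCC320.04c, the Gem1 GTPase that ties mitochondria to the endoplasmic reticulum, with 12 introns, had 5.04 and 4.68 antisense RPKM in spt6-1, against 0.454 and 0.295 in WT (adjusted p = 3.55e-06). Trk2, a potassium transporter with 12 introns, had 3.15 and 3.39 antisense RPKM in spt6-1, against 0.0230 and 0.0641 in WT (adjusted p = 1.83e-06), the WT values being 3 and 4 reads. Rdh54 had 5.09 and 3.67 antisense RPKM in spt6-1, against 1.27 and 0.861 in WT (adjusted p = 1.41e-04). The groups did not overlap in any of the 5.

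By function, the lists below were cut to intron-rich genes, so each count is small. They were drawn by gene symbol and hold some genes of other function. Examples are ubp13 (Pan2) under ubiquitin and proteasome, and arp8 of the Ino80 complex under cytoskeleton. In each list most antisense calls were rises on the deposited scale, where 81.9% of all coding genes tested rose, while after median centring the antisense medians of all the lists except transcription and chromatin are below 0. Genes can pass the antisense filter through the spt6-1 libraries alone, as 113 of the 307 intron-rich genes tested did. The antisense counts of the lists therefore cannot be read alone. The lists were chosen with earlier results of these data known. On the sense strand 12.1% of nuclear coding genes tested were higher and 8.2% lower, beside which the sense counts of the lists are to be read. Among the genes named below from the lists, the antisense calls of nda3, arp8, mmi1, rec8 and spt7 ended under median centring. Vesicle traffic genes numbered 17, of which 2 rose on the sense strand, ypt5 and rho2, and 12 of 16 tested rose and 1, apl1, fell on the antisense strand. Ypt1, the Rab GTPase of traffic to the Golgi, had 267 and 348 sense RPKM in spt6-1, against 230 and 286 sense RPKM in WT (adjusted p = 0.557), and 3.37 and 2.85 antisense RPKM in spt6-1, against 0.0807 and 0.0421 in WT, which are 4 and 1 reads. Vps35 of the retromer had 5.78 and 5.06 antisense RPKM in spt6-1, against 0.181 and 0.189 in WT (8.63-fold, adjusted p = 1.55e-06). Ubiquitin and proteasome genes numbered 14, of which 1 fell on the sense strand, the conjugating enzyme ubc15, and 13 of 14 rose on the antisense strand. Of 11 cytoskeleton genes 1 rose on the sense strand, the tubulin chaperone alp1, and 9 rose on the antisense strand. Nda3, beta-tubulin, had 596 and 460 sense RPKM in spt6-1, against 457 and 511 sense RPKM in WT (adjusted p = 0.803), and 4.19 and 2.98 antisense RPKM in spt6-1, against 0.501 and 0.329 in WT (4.43-fold, adjusted p = 1.98e-05). Arp8, an actin-like subunit of the Ino80 complex, had 4.07 and 3.24 antisense RPKM in spt6-1, against 0.228 and 0.271 in WT (5.52-fold, adjusted p = 4.75e-06). After median centring the antisense change of nda3 was 0.06 (adjusted p = 0.801), and under quantile normalization 0.05 (adjusted p = 0.853).

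Of 12 kinase and phosphatase genes, pck1 and cdc2 rose on the sense strand and 11 rose on the antisense strand, among them the checkpoint kinase chk1, with 3.75 and 3.63 antisense RPKM in spt6-1, against 0.228 and 0.113 in WT (6.27-fold, adjusted p = 2.96e-06). Of 19 meiotic genes, 17 were tested on the sense strand, where mug62, mug137, hop1 and meu13, a homologous-pairing protein, rose and mug64 fell, and 15 of 18 tested rose on the antisense strand. Rec8, nearly silent on the sense strand, had 8.60 and 8.60 antisense RPKM in spt6-1, against 1.48 and 1.19 in WT (4.97-fold, adjusted p = 4.68e-06), with nothing annotated opposite. Mmi1, which marks meiotic messages for removal in growing cells, had 22.3 and 25.2 sense RPKM in spt6-1, against 17.9 and 26.5 sense RPKM in WT (adjusted p = 0.733), and 2.75 and 2.08 antisense RPKM in spt6-1, against 0.182 and 0.228 in WT (4.11-fold, adjusted p = 1.23e-05). Over all 205 coding genes of the meiotic list tested, 74 rose and 12 fell on the sense strand.

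Splicing factors numbered 8 among intron-rich genes. On the sense strand 1 fell, cyp1, a cyclophilin, and all 8 rose on the antisense strand. Dbr1, which opens the lariats that splicing leaves, had 13.6 and 13.2 sense RPKM in spt6-1, against 12.1 and 11.7 sense RPKM in WT (adjusted p = 0.517), and 8.001 and 7.30 antisense RPKM in spt6-1, against 0.588 and 0.389 in WT (8.28-fold, adjusted p = 1.86e-06). Over all 96 coding genes of the splicing list, whatever their introns, 7 rose and 8 fell on the sense strand, with a median log2 change of 0.0043, and 77 of 94 tested rose and 5 fell on the antisense strand. Of 10 transcription and chromatin genes, clr6 and rpc25, a subunit of RNA polymerase III, fell on the sense strand and 9 rose on the antisense strand. Spt7, a SAGA subunit, had 6.09 and 5.56 antisense RPKM in spt6-1, against 0.675 and 0.490 in WT (5.86-fold, adjusted p = 3.86e-06), and tfb1, a TFIIH subunit, had 3.95 and 4.51 antisense RPKM in spt6-1, against 0.188 and 0.262 in WT (6.52-fold, adjusted p = 2.73e-06). Of 3 mitochondrial genes, qcr6 of the respiratory chain fell on the sense strand, with 117 and 156 RPKM in spt6-1, against 289 and 265 RPKM in WT (2.04-fold lower, adjusted p = 0.0315), a call lost with no filter (0.051) and without spt6-1 replicate 1 (0.146), WT replicate 1 (0.106) or WT replicate 2 (0.0748). All 3 rose on the antisense strand, as did gpi3 and psd3, the lipid and glycosylation genes, though after median centring the antisense change was -0.40 for atp14, -0.34 for cox13 and -1.36 for psd3, qcr6 and gpi3 were no longer called (0.09 and 0.31, adjusted p = 0.779 and 0.272), and the psd3 call was lost without WT replicate 2 (0.0613).

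The intron-rich genes include 16 members of the wtf family, all on chromosome III, a group singled out here after its values were seen. Wtf genes are selfish spore killers and suppressors of such killers. On the sense strand 5 of 16 rose, wtf11, wtf14, wtf15, wtf17 and wtf20, and both spt6-1 libraries lay above both WT libraries in 13 of 16, beside 12.1% and 33.3% of nuclear coding genes. Their median sense level was 13.2 and 11.4 RPKM in spt6-1, against 9.42 and 6.47 RPKM in WT, a gap smaller than most antisense changes. On the antisense strand 12 of 13 tested rose on the deposited scale and wtf16 did not (adjusted p = 0.465), with medians of 1.65 and 1.33 RPKM in spt6-1, against 0.402 and 0.217 RPKM in WT. Genes can pass the antisense filter through the spt6-1 libraries alone, so this count cannot be read alone. Tested or not, all 16 had both spt6-1 libraries above both WT libraries, beside 86.4% of nuclear coding genes. The median antisense log2 change of the wtf genes tested, 1.07, lies below 0 after median centring. RefSeq held 14 of the 16, all but wtf8 and wtf17. In 11 of these 14, exons share a stretch of at least 50 bases at 98% identity or more with another place in the genome, so reads may have been split between copies and these values are uncertain. Of the 5 that rose on the sense strand, wtf20 has such a copy, none was found for wtf11, wtf14 and wtf15, and wtf17 was not searched. They were the only 11 of the 323 intron-rich genes searched with such a copy, and none of the genes named by rule had one.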

How the data were processed

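The submitters' processing notes name TopHat and the build ASM294v2, an aligner of spliced reads and a genome assembly, with no role or order given. How reads were counted, by which annotation and after which filters is not given in the sources used here. RPKM were computed by the authors for each feature, strand and library. From the steps between values, sense RPKM have exon length as divisor and antisense RPKM the whole locus, and 100% of values were then whole reads within 0.01 read.

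Log2(RPKM + 0.5) was fitted with limma 3.58.1 in R 4.3.3 (lmFit, eBayes with a trend, two-sided, Benjamini-Hochberg adjustment over everything tested, threshold 0.05). The sense fit kept features that reached 1 RPKM in 2 or more libraries, the antisense fit coding genes that reached 0.5 antisense RPKM in 2 or more, and the ratio fit genes past both. The fit was tested on data simulated from WT sense levels with a small share of features changed, which does not check the antisense and ratio calls. Scaling, pseudocount, filter, replicate block, left-out libraries, intron minimum and a count model (voom) were varied. Positions of genes are those of the deposited table, and intron sequences come from RefSeq on ASM294v3, matched by gene ID with no positions carried over.

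Genes were named by rule: spt6, the 8 largest sense rises and falls, the 10 largest antisense rises and up to 5 falls, up to 5 ratio rises and falls, the 5 with the most introns, the 5 with the smallest antisense change at 10 sense RPKM or more, and up to 3 of each functional list. The members and the lists were chosen with earlier results of these data known. The strains share replicate numbers, but no label pairs their libraries. The values of 1 gene that the rule names and 1 intron sequence are not reported here.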

Additional observations from a re-analysis of the deposited data

How the results depend on the processing

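With 2 libraries a strain, counts of calls moved when 1 was left out. Such fits gave 12 to 19 sense rises and 10 to 22 sense falls, 132 to 245 antisense rises and 1 to 4 antisense falls, and 106 to 215 ratio rises and 4 to 9 ratio falls, with antisense medians of 1.18 to 1.53 and ratio medians of 1.22 to 1.58. A lone library is then assumed to vary like the other strain's pair. At 1 read per kilobase, equal to 0.0278 to 0.0581 RPKM, low antisense values in WT are coarse, and the lowest are set by a few reads.

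With no filter there were 19 sense rises and 17 falls, and a ratio median of 1.45. Quantile normalization gave 16 sense rises and 66 falls (median -0.25), 70 antisense rises and 96 falls (median -0.21), and 80 ratio rises and 54 falls (median 0.18). Median centring, which by construction sets the libraries' antisense medians equal, gave 53 antisense rises and 160 falls (median -0.56), and 54 ratio rises and 122 falls (median -0.37). Scaling by coding sense reads, chosen after seeing the data, gave 20 sense rises. A pseudocount of 0.1 gave medians of 2.07 antisense and 2.16 for the ratio, and a pseudocount of 1 gave 1.23 and 1.22.

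The groups below differ in size, so their counts are not to be set against each other. Of all nuclear coding genes tested, 12.1% rose and 8.2% fell on the sense strand. On the antisense strand these shares were 81.9% and 1.65%, and on the ratio 71.7% and 6.04%. With 5 or more introns there were 18 sense rises and 13 falls, 135 antisense rises and 2 falls, and 122 ratio rises (median 1.6996). With 3 or more there were 62 sense rises and 61 falls, 516 antisense rises and 10 falls, and 455 ratio rises and 23 falls (median 1.495). Genes with nothing annotated opposite gave 12 sense rises and 8 falls, 97 antisense rises and 0 falls (median 1.94), and 88 ratio rises and 0 falls (median 2.03). Of the 99 such genes tested on the antisense strand, 30 were at the filter in both WT libraries, and the others could hardly be called lower, so these 0 counts say little. With no filter, limma called 0 of the 110 lower on the antisense strand and 0 on the ratio, against 0 and 1 at an unadjusted p under 0.05. Voom with the filter called 0 lower on the antisense strand. By length, the antisense median was 1.28 for genes under 1500 bases and 1.64 for those from 1500 to under 2500, and the ratio median 1.40, 1.72 and 1.40 over these bins and that of 2500 bases or more.

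Among the genes named, calls with the other sign came under median centring and quantile normalization, which remove a shift shared by all genes. Antisense changes under median centring were -1.35 for mug137, -1.33 for hop1, -1.05 for SPAC8C9.05, -1.09 for SPCC825.02, -0.62 for SPBC16A3.12c, -0.40 for atp14 and -1.36 for psd3, and -0.73 for psd3 under quantile normalization. Ratio changes were -0.78 for pck1 and -0.91 for rsd1 under median centring, and -0.89 for rsd1 under quantile normalization. The fit on whole reads recovered from the RPKM (voom, chosen after seeing the data) called 33 sense rises and 31 falls, and 256 antisense rises and 4 falls. The planned edgeR and DESeq2 fits were not run, since the deposited values are not counts.

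The labels share replicate numbers between the strains but pair no libraries. Deviations of same-numbered libraries correlated at 0.32 on the sense and 0.20 on the antisense strand. A fit with the replicate number as a block (replicate block) gave 42 sense rises and 40 falls, 261 antisense rises and 5 falls, and 242 ratio rises and 10 falls.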
